A study of Mus musculus with 6 samples.

Results

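Intercalated cells are the acid-base cells of the connecting tubule and the collecting duct. Their genes for acid secretion were examined in whole kidneys with and without overexpression of adiponectin in the tubule. The set comprised 10 genes, taken by symbol from the 54532 genes of the deposited table through their Ensembl identifiers in GENCODE M21 (GRCm38). They encode 3 subunits of the proton pump (*Atp6v1b1*, *Atp6v0d2* and *Atp6v1g3*), the transcription factors *Foxi1* and *Hmx2*, the type A exchanger *Slc4a1*, the type B exchangers *Slc26a4* and *Slc4a9*, and the ammonia channels *Rhcg* and *Rhbg*. All 10 passed the filter on low counts.

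Libraries were made from kidneys of mice that carry KsprtTA alone (Control, with a genotype of WT in the sample labels) and of mice that carry KsprtTA together with TRE-Adiponectin (KSPAPN), 3 libraries per group. Both groups were male mice on the C57BL/6 background, received doxycycline at 600 mg/kg in chow for 4 days, and were sampled as pools of 3 animals per library, and the spread given here is therefore that between pools. No age was found in the sources used here. The Ksp promoter makes rtTA in tubular epithelium from the proximal tubule onward to the collecting duct, and doxycycline lets rtTA switch on the transgene. The labels give kidney as the tissue but mention liver in the text on extraction, and the kidney genes *Umod* (542 to 795 FPKM) and *Slc34a1* (980.2 to 1368 FPKM) were abundant in all 6 libraries. Total counts were 17183358 to 18205023 per library in Control and 18150442 to 20871173 in KSPAPN. *Adipoq* had 2, 0 and 2 reads in Control and 24629, 17483 and 26811 in KSPAPN.

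Intercalated cells carry a vacuolar-type proton pump, whose subunits are partly isoforms restricted to few tissues. Type A cells place the pump at the urinary side and return bicarbonate to the blood through the anion exchanger 1, encoded by *Slc4a1*. Type B cells secrete bicarbonate through pendrin (*Slc26a4*) and carry the exchanger AE4 (*Slc4a9*) at the blood side. FOXI1 is the forkhead factor required for both types to form, and the Rh glycoproteins RHCG and RHBG move ammonia, which carries much of the acid excreted by the kidney.

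The bases upstream of the transcription start are shown for a pump subunit, the forkhead factor, a type B exchanger and an ammonia channel, to place the 4 roles side by side. They are the 250 bases before the start in the RefSeq promoter table (GRCm38.p6), written 5′ to 3′ on the strand of the gene, and capitals mark the forkhead core TGTTTA or its reverse complement TAAACA. Of the 10 genes, 6 had entries there, *Hmx2* with a pair of starts; *Atp6v0d2*, *Slc4a1*, *Slc4a9* and *Rhbg* had none.

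*Atp6v1b1* (chr6:83742767-83743016, plus strand): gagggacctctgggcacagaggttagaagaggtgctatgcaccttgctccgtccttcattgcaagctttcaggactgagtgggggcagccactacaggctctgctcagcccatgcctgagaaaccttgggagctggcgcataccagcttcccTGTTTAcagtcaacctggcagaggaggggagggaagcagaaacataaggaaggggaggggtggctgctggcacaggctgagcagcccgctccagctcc

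*Foxi1* (chr11:34208090-34208339, minus strand): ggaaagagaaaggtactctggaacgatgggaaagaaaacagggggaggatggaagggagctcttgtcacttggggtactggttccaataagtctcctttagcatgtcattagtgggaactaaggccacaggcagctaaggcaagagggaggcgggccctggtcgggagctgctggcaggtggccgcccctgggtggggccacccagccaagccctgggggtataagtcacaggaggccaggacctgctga

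*Slc26a4* (chr12:31559985-31560234, minus strand): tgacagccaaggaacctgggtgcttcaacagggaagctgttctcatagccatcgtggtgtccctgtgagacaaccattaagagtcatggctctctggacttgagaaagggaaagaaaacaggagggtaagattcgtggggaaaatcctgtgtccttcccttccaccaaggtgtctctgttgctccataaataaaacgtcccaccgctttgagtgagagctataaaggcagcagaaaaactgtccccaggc

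*Rhcg* (chr7:79617658-79617907, minus strand): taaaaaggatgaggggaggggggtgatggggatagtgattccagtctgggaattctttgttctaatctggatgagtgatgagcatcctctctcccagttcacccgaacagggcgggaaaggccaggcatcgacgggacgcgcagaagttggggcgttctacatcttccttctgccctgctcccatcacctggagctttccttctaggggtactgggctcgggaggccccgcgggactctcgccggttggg

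TGTTTA or its complement stood in 1 of the 7 windows of these genes, that of *Atp6v1b1*, with its first base 98 bases before the start. It was present in 12.03% of all 32851 windows of the same length. The GC content of the printed windows was 59.6% for *Atp6v1b1*, 58.8% for *Foxi1*, 49.6% for *Slc26a4* and 58.4% for *Rhcg*, beside a median of 52.4% over all windows.

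Averaged over all 6 libraries, the most abundant of the genes stood 13.4-fold above the least abundant. The least abundant was *Rhbg*, whose level and place are uncertain, since its exons overlap those of the gene model *Gm38392*. Per gene length, in deposited FPKM, *Rhcg* was in Control the most abundant at 50.6 ± 1.38 (SD, n = 3 libraries), followed by *Slc4a9* at 31.2 ± 1.33, *Atp6v1b1* at 26.1 ± 0.442, *Atp6v1g3* at 23.6 ± 1.61 and *Slc26a4* at 20.4 ± 0.269. The ranges of these 5 genes over the 3 Control libraries did not overlap with each other. *Foxi1* (15.95 ± 3.07), *Atp6v0d2* (11.1 ± 1.53) and *Slc4a1* (9.22 ± 0.769) followed, each overlapping with its neighbour. *Rhbg* (4.52 ± 0.0984) and *Hmx2* (4.35 ± 0.710) were lowest and not separated from each other. In KSPAPN *Rhcg* remained first and *Rhbg* was last, and the ranges of *Atp6v1g3*, *Slc26a4* and *Atp6v1b1* overlapped. That of *Slc4a9* overlapped with *Atp6v1g3* and lay above those of *Slc26a4* and *Atp6v1b1*.

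**Figure D1:**
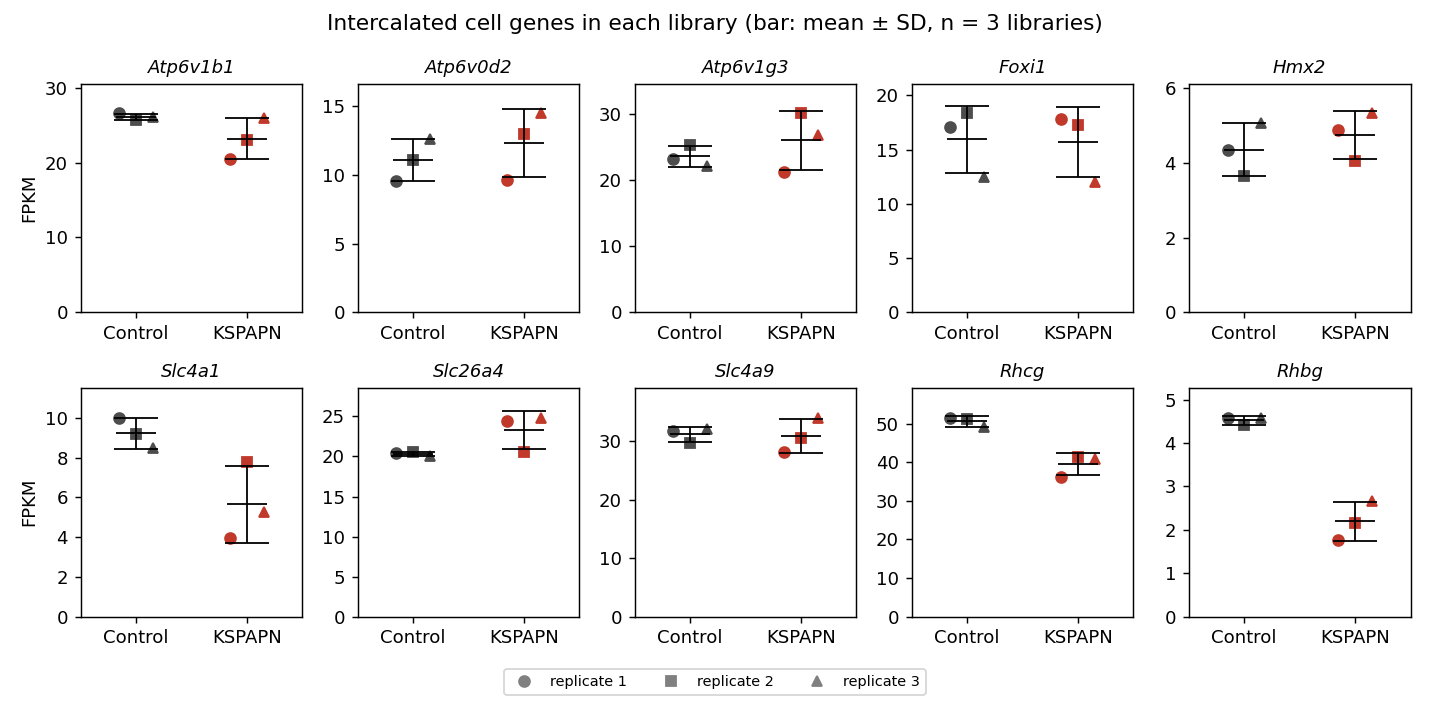
FPKM of each of the 10 genes in the 3 Control (grey) and 3 KSPAPN (red) libraries, each axis starting at 0; bars give mean ± SD and symbols give the replicate number. *Slc4a1*, *Rhcg* and *Rhbg* lie lower in every KSPAPN library than in any Control library, and the groups overlap for the other 7 genes.

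*Rhbg*, an ammonia channel, fell in KSPAPN, and *Rhcg* and *Slc4a1* lay lower in every KSPAPN library without passing the adjusted test. Pump subunits, type B exchangers and transcription factors overlapped between the groups. In edgeR's quasi-likelihood test with Benjamini-Hochberg adjustment over all 16017 genes tested, 1 of the 10 genes was lower at an adjusted p under 0.05 and 0 were higher, where 2.25% of all genes tested were lower and 0.393% higher. By unadjusted p, again under 0.05, 3 of the 10 were lower (*Rhbg*, *Rhcg* and *Slc4a1*) and 0 were higher, beside 11.2% and 7.52% of all genes (18.7% in either direction). The same 3 were the genes whose groups did not overlap in normalised counts, a pattern seen toward lower values in 13.1% of all genes and toward higher values in 11.4% (24.5% in either direction). On the log2 scale the 10 genes had a median change of -0.012, beside 0.012 over all genes tested. A whole kidney does not tell fewer cells of a type from less RNA per cell.

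The count depended on the fit, and so did the share of all genes called lower. DESeq2 called 3 of the 10 genes lower where it called 5.31% of the genes it gave an adjusted p lower, and the fit without a filter on low counts called 3, beside 3.53%. With the replicate number as a block it was 2 (beside 4.4%), and with a correction for GC content and length 0 (beside 1.87%), or 1 when that correction and the block were combined (beside 3.07%). *Rhbg* alone was called with RLE size factors (2.17% of all genes), with total counts (1.22%) and with limma on log2 FPKM at a pseudocount of 1 (0.737%) or 0.1 (0.681%). Without Control replicate 1, 2 and 3, 0 of the 10 were called, beside 0.206%, 0.7% and 1.64% of all genes. Without KSPAPN replicate 1 and 2, 1 was called each time (*Rhbg* and *Slc4a1*, beside 3.47% and 1.47%), and without KSPAPN replicate 3, 0 (beside 0.366%).

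*Rhbg* (ENSMUSG00000104445, chromosome 3 from 88242874 to 88254709) encodes the ammonia channel at the blood side of the distal epithelium. Its FPKM was 4.57, 4.41 and 4.58 in the 3 Control libraries and 1.77, 2.15 and 2.67 in the 3 KSPAPN libraries. All KSPAPN libraries were far below the narrow Control range. The log2 fold change was -1.04 (SE 0.20, edgeR adjusted p = 0.0264), a level 0.487 times that of Control (95% interval 0.359 to 0.660). These values rest on 148 to 164 reads per Control library and 76 to 107 per KSPAPN library. In GENCODE M21 the longest transcript of *Rhbg* shares 59.4% of its 100-base stretches with the overlapping gene model *Gm38392*, on which 2 reads were counted in all 6 libraries together. How reads that fall on both models were counted was not stated, so the level of *Rhbg* is uncertain. In edgeR the adjusted p was 0.123, 0.0719 and 0.0674 without Control replicate 1, 2 and 3, and 0.0618 and 0.0563 without KSPAPN replicate 2 and 3, with log2 fold changes from -1.199 to -0.89 over all 6 omissions.

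*Rhcg* (ENSMUSG00000030549, chromosome 7 from 79593363 to 79617657) encodes the ammonia channel that reaches the urinary side and is expressed in principal cells too. FPKM was 51.5, 51.3 and 49.0 in Control and 36.2, 41.3 and 40.9 in KSPAPN, without overlap. The log2 fold change was -0.35 (SE 0.086, 95% interval -0.54 to -0.16), and the adjusted p was 0.0610 in edgeR and 0.0279 in DESeq2. Relative to *Rhcg*, *Rhbg* was lower in every KSPAPN library than in any Control library. The ratio of their counts was 0.0769, 0.0746 and 0.0811 in Control and 0.0425, 0.0451 and 0.0565 in KSPAPN, a difference of -0.70 on the log2 scale that was not tested.

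*Slc4a1* (ENSMUSG00000006574, chromosome 11 from 102348824 to 102366203) had 10.01, 9.20 and 8.47 FPKM in Control and 3.96, 7.77 and 5.25 in KSPAPN. The 3 KSPAPN libraries were spread widely, and replicate 2 lay just under the lowest Control library. The log2 fold change was -0.71 (SE 0.20, 95% interval -1.14 to -0.27), and the adjusted p was 0.0893 in edgeR and 0.00960 in DESeq2. Without KSPAPN replicate 2 it was -0.99 (edgeR adjusted p = 0.0163), and it was -0.49 without KSPAPN replicate 1. *Slc4a1* also encodes band 3 of red cells, so that red cell markers were set beside it. Of 5 such genes, the globin genes *Hba-a1*, *Hba-a2*, *Hbb-bs* and *Hbb-bt* and the heme synthesis gene *Alas2*, 0 passed the test in either direction and 4 had a log2 fold change above 0. Their summed level was 108 to 199 FPKM in Control and 135 to 263 in KSPAPN. The sum was highest in KSPAPN replicate 1, where *Slc4a1* was lowest. A gene-level count adds the kidney and red cell transcripts of *Slc4a1*, and the part of red cells in its values was not tested.

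Neither type B exchanger passed the test. *Slc26a4* (ENSMUSG00000020651, chromosome 12 from 31519827 to 31559969) had 20.4, 20.6 and 20.1 FPKM in Control and 24.4, 20.5 and 24.8 in KSPAPN. KSPAPN replicates 1 and 3 stood above Control and replicate 2 inside its range, with a log2 fold change of 0.20 (SE 0.099, edgeR adjusted p = 0.313). *Slc4a9* (ENSMUSG00000024485, chromosome 18 from 36528147 to 36556273) had 31.8, 29.7 and 32.2 FPKM in Control and 28.2, 30.6 and 34.1 in KSPAPN. The groups overlapped fully. Its log2 fold change was -0.0065 (edgeR adjusted p = 0.982), and the 95% interval allowed a level from 0.861 to 1.151 times that of Control.

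Within a library, ratios of counts are free of the scaling between libraries. Reads on *Slc26a4* were 1.30, 1.42 and 1.51 times those on *Slc4a1* in Control, and 3.92, 1.68 and 3.01 times in KSPAPN. Reads on *Slc4a9* were 1.90, 1.94 and 2.28 times those on *Slc4a1* in Control and 4.27, 2.36 and 3.89 times in KSPAPN. Both type B to type A ratios were thus higher in every KSPAPN library than in any Control library. They share *Slc4a1* as denominator, which was itself lower in every KSPAPN library, so they are not separate results. *Slc4a1* alone stands for type A here, and its count includes any transcripts of red cells. The mean log2 ratio moved from 0.49 ± 0.11 (SD, n = 3 libraries) to 1.44 ± 0.63 for *Slc26a4*, a 1.92-fold difference, and from 1.02 ± 0.14 to 1.76 ± 0.46 for *Slc4a9*, a 1.67-fold difference. The ratio of *Slc26a4* to *Slc4a9*, both of type B, overlapped between the groups. These ratios are given as values, without a test.

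**Figure D2:**
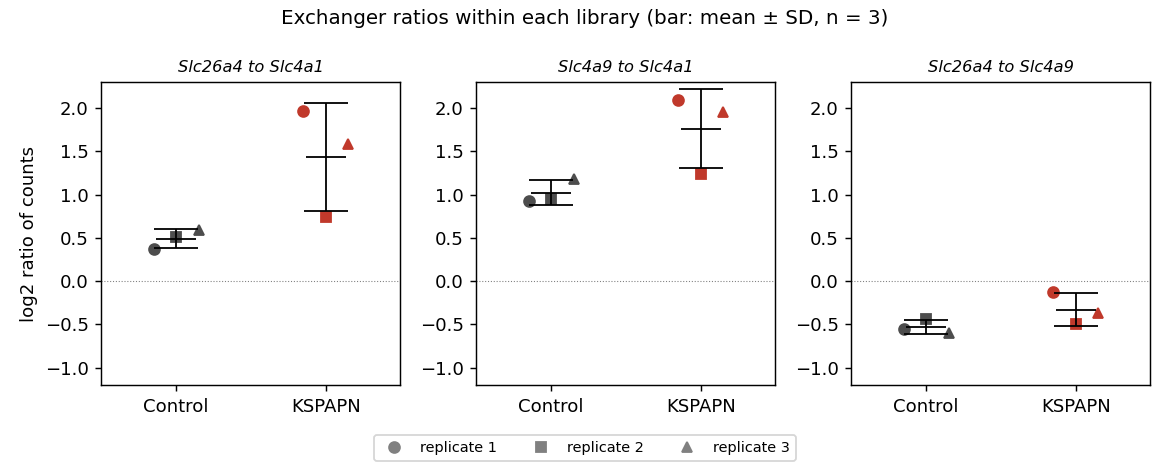
Log2 ratio of read counts between exchanger genes within each Control (grey) and KSPAPN (red) library, with mean ± SD (n = 3) and symbols for the replicate number. Both ratios over *Slc4a1* are higher in all KSPAPN libraries, with replicate 2 nearest to Control (0.75 for *Slc26a4* and 1.24 for *Slc4a9*), while *Slc26a4* to *Slc4a9* overlaps.

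None of the 3 pump subunits passed the test. *Atp6v1b1* (chromosome 6 from 83742990 to 83758855), the B1 subunit that takes part in ATP hydrolysis, had 26.6, 25.7 and 26.0 FPKM in Control and 20.5, 23.1 and 26.0 in KSPAPN. *Atp6v0d2* (chromosome 4 from 19876841 to 19922605), the d2 subunit of the membrane part, had 9.54, 11.1 and 12.6 FPKM in Control and 9.63, 13.0 and 14.5 in KSPAPN. *Atp6v1g3* (chromosome 1 from 138273738 to 138289462), the G3 subunit of the stalk, had 23.2, 25.3 and 22.1 FPKM in Control and 21.2, 30.0 and 26.7 in KSPAPN. In each of the 3 genes KSPAPN replicate 1 was the lowest of its group and the groups overlapped. Log2 fold changes were -0.16 (95% interval -0.38 to 0.054), 0.16 (-0.19 to 0.51) and 0.14 (-0.13 to 0.42), with adjusted p from edgeR of 0.402, 0.634 and 0.580.

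Broadly expressed paralogs of these subunits gave a further comparison. Per length, *Atp6v1b1* stood at 0.332 to 0.379 times the FPKM of its paralog *Atp6v1b2* in Control and at 0.363 to 0.426 times in KSPAPN. *Atp6v0d2* to *Atp6v0d1* was 0.129 to 0.172 in Control and 0.136 to 0.214 in KSPAPN, and *Atp6v1g3* to *Atp6v1g1* was 0.147 to 0.175 and 0.124 to 0.198. All 3 ratios overlapped between the groups. Of 5 broadly expressed paralogs, 0 passed an adjusted p of 0.05 in edgeR, and *Atp6v1b2* was the 1 past an unadjusted p of 0.05 (log2 fold change -0.28, SE 0.094, edgeR adjusted p = 0.148).

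*Foxi1* (chromosome 11 from 34204338 to 34208089) had 17.1, 18.3 and 12.5 FPKM in Control and 17.8, 17.3 and 12.02 in KSPAPN. In both groups the replicate numbered 3 was the lowest, and the groups covered nearly the same range. Its log2 fold change was -0.017 (95% interval -0.40 to 0.37, edgeR adjusted p = 0.976). *Hmx2* (chromosome 7 from 131548773 to 131558014), a homeobox gene, had 4.35, 3.64 and 5.06 FPKM in Control and 4.89, 4.05 and 5.33 in KSPAPN. The groups overlapped, with a log2 fold change of 0.14 (95% interval -0.24 to 0.51, edgeR adjusted p = 0.716).

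A wider list of 22 intercalated cell genes, none of them among the 10, gave a mixed picture. In edgeR, 1 was lower and 0 were higher by adjusted p under 0.05, beside 2.25% and 0.393% of all genes tested. By unadjusted p under 0.05, 4 were lower and 0 higher, beside 11.2% and 7.52%. Normalised counts did not overlap between the groups in 6 genes toward lower values and 0 toward higher, beside 13.1% and 11.4%. As many had a log2 fold change above 0 (11) as below it (11), and the median was 0.019, close to that of all genes tested. *Atp4a*, for the catalytic subunit of the gastric-type potassium-transporting proton pump, fell. It had 11.3, 7.14 and 7.67 FPKM in Control and 4.49, 5.91 and 4.04 in KSPAPN, a log2 fold change of -0.85 (SE 0.19, edgeR adjusted p = 0.0482). It passed the threshold without KSPAPN replicate 2 and missed it without any other single library, with adjusted p from 0.0427 to 0.193 and log2 fold changes from -1.02 to -0.62 over the 6 omissions. Its call was also lost with total counts only, with limma at both pseudocounts, and after the GC content and length correction with or without the replicate block.

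Of 5 further type A genes, 0 passed the adjusted test. *Aqp6*, an intracellular water channel of type A cells, had 19.9, 18.5 and 18.1 FPKM in Control and 9.52, 17.3 and 11.3 in KSPAPN, without overlap. Its log2 fold change was -0.57 (SE 0.18), and the adjusted p was 0.124 in edgeR and 0.0390 in DESeq2. The other 4 genes of the type A list had log2 fold changes of 0.17 for *Kit*, 0.093 for *Adgrf5*, -0.16 for *Dmrt2* and 0.078 for *Slc26a7*, with adjusted p from edgeR between 0.601 and 0.916. *Kit* and *Adgrf5* are expressed in other kidney cells as well. Of the 3 further type B genes, 0 passed the test, with log2 fold changes of -0.045 for *Insrr*, 0.18 for *Oxgr1* and 0.31 for *Slc4a8*.

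Among the genes common to intercalated cells, *Atp6v0a4*, for the a4 subunit of the pump, had 51.4, 48.9 and 52.0 FPKM in Control and 33.3, 37.3 and 43.4 in KSPAPN. Its groups did not overlap, and its log2 fold change was -0.41 (SE 0.11, adjusted p = 0.0706 in edgeR and 0.0113 in DESeq2). *Tmem213*, which lies on the opposite strand with exons that overlap those of *Atp6v0a4*, stood at -0.39 on the same scale (SE 0.12, edgeR adjusted p = 0.117). Since no strandedness was stated, reads of this pair of genes may not be told apart, and *Atp6v0a4* also shares exon positions with *D630045J12Rik* on its own strand. *Car2*, the cytosolic carbonic anhydrase that supplies protons and bicarbonate, stood at -0.25 (SE 0.11, edgeR adjusted p = 0.270). *Tfcp2l1*, a transcription factor of the collecting duct, stood at 0.22 (edgeR adjusted p = 0.343).

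**Figure D3:**
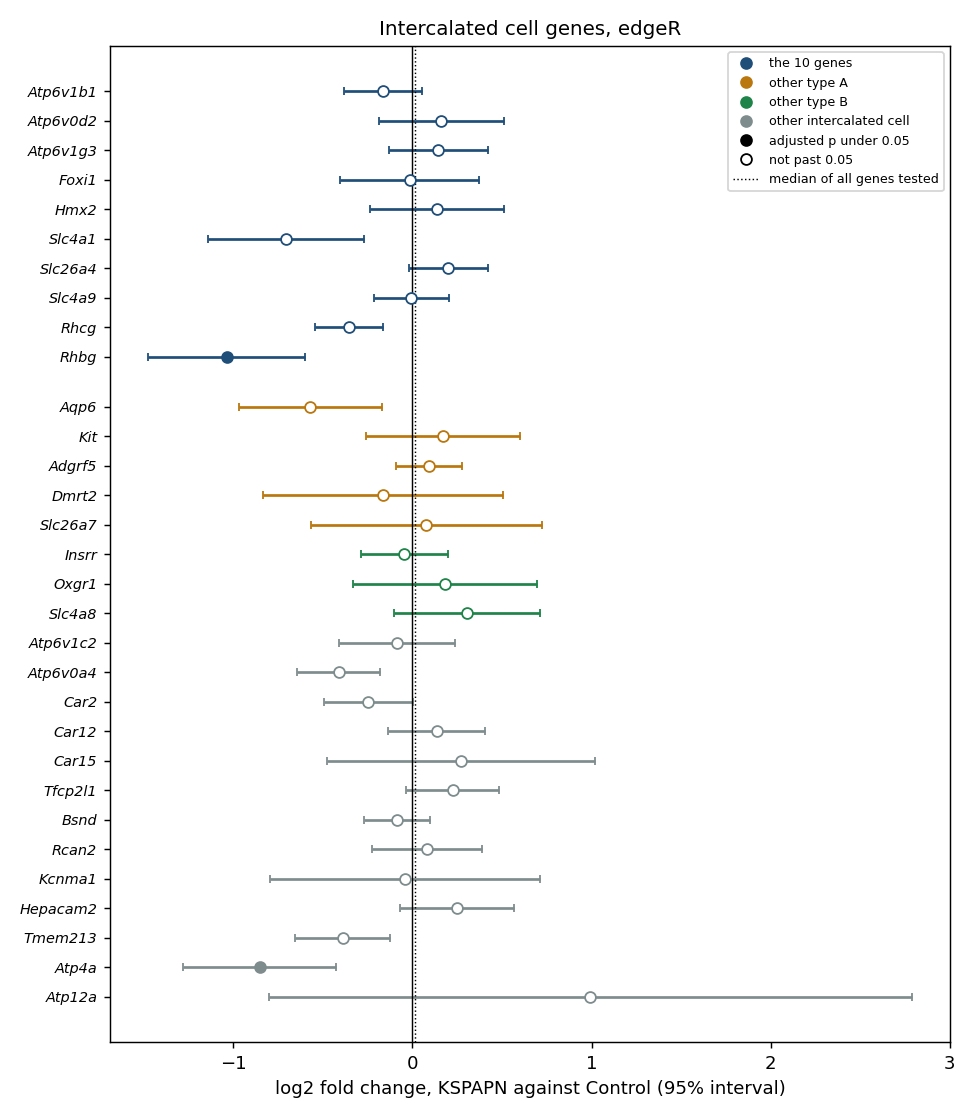
Log2 fold change of KSPAPN against Control with 95% interval (edgeR) for the 10 genes and further intercalated cell genes; filled points have an adjusted p under 0.05 and the dotted line is the median of all genes tested. *Rhbg* and *Atp4a* are the filled points, and the intervals of *Slc4a1*, *Rhcg*, *Aqp6*, *Atp6v0a4* and *Tmem213* also lie below 0.

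Deviations from the group means of log2 normalised counts were compared between genes over the 6 libraries, as a description. All genes of a library share its depth and composition, and deviations centred on their group mean are not independent of each other. Over the 45 pairs of the 10 genes the median Pearson r was 0.28, with 31 pairs above 0. *Slc4a1* deviated with *Aqp6* (r = 0.98), *Atp6v1g3* (r = 0.89) and *Rhcg* (r = 0.81), and against *Slc26a4* (r = -0.86). With *Slc4a9*, the other type B exchanger, its r was 0.19. *Rhbg* deviated with *Atp6v1b1* (r = 0.996), *Slc4a9* (r = 0.94) and *Atp6v0a4* (r = 0.99), all with their highest deviation in KSPAPN replicate 3 and their lowest in KSPAPN replicate 1. *Foxi1* ran against *Slc4a9* (r = -0.88).

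*Rhbg*, *Rhcg* and *Slc4a1* were among the 4 genes with the highest GC content in their transcripts. It was 56.9% for *Rhbg*, 55.4% for *Rhcg*, 55.1% for *Slc4a1* and 55.0% for *Hmx2*, and 39.4% to 53.9% for the other 6. With a trend against GC content and transcript length removed from each library, the log2 fold changes of the first 3 were -0.86, -0.20 and -0.63, with edgeR adjusted p-values of 0.0662, 0.290 and 0.165. The call of *Rhbg* was lost there, and no sign of the 3 changed. When this correction was combined with the replicate block, *Rhbg* was called (log2 fold change -0.88, edgeR adjusted p = 0.0431). *Rhcg* and *Slc4a1* were not called in the combined fit, with edgeR adjusted p-values of 0.188 and 0.0682. Whether GC content has a part in the lower values of these 3 genes was not tested.

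Markers of other cells were set beside these genes. Of 8 principal cell markers 7 could be tested, and 0 passed an adjusted p of 0.05 in edgeR, while *Aqp3*, *Hsd11b2* and *Fxyd4* were lower at an unadjusted p under 0.05. Their log2 fold changes were -0.32, -0.30 and -0.38. The other 4 tested were above 0, at 0.19 for *Aqp2*, 0.098 for *Scnn1b*, 0.080 for *Scnn1g* and 0.087 for *Kcnj1*, and the median of the list was 0.080. The summed level of the principal cell markers was 526 to 628 FPKM in Control and 462 to 775 in KSPAPN, led by *Aqp2*. *Aqp2* alone was at 537, 241.5 and 227.3 FPKM in KSPAPN replicates 1, 2 and 3. The sum was highest in KSPAPN replicate 1, and in KSPAPN replicates 2 and 3 it lay below every Control library. Summed connecting tubule markers overlapped between the groups at 1150 to 1446 and 919 to 1495 FPKM, with 0 of 4 past the test. Of 6 proximal tubule markers all had a log2 fold change below 0 (median -0.28) and 1, the organic anion transporter *Slc22a6*, fell (log2 fold change -0.46, edgeR adjusted p = 0.0388). Of 4 thick ascending limb markers 1, the salt cotransporter *Slc12a1*, rose (log2 fold change 0.52, edgeR adjusted p = 0.0437). *Cldn10* was lower in every KSPAPN library (log2 fold change -0.41, adjusted p = 0.0881 in edgeR and 0.0282 in DESeq2), *Umod* stood at -0.045 and *Cldn16* at 0.17, with a median of 0.065. The summed proximal tubule markers were 1752 to 2042 FPKM in Control and 1496 to 1637 in KSPAPN, without overlap. Their largest part was *Slc34a1*, which overlapped between the groups (1124 to 1368 and 980.2 to 1185 FPKM). The FPKM of all genes tested also summed to less in KSPAPN, at 363100 to 414500 beside 411000 to 453600 in Control, with overlap. The summed distal convoluted tubule markers did not overlap between the groups, at 107 to 124.5 and 58.8 to 102 FPKM, with 0 of 3 past the test. Most of this sum was *Slc12a3*, lower in every KSPAPN library (log2 fold change -0.36, edgeR adjusted p = 0.207). *Pvalb* (-0.89) and *Trpm6* (0.20) overlapped between the groups. *Pvalb* was at 2.10, 17.2 and 12.2 FPKM in KSPAPN replicates 1, 2 and 3. None of the tested podocyte, endothelial, macrophage and adipocyte markers passed. The adipocyte markers *Plin1*, *Lep*, *Cidec* and *Cfd* summed to no more than 1.60 FPKM in any library. The part of these shifts in the values of the 10 genes was not tested.

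Among genes for acid-base handling in the proximal tubule, *Pck1*, whose product serves glucose production from the carbon left by ammonia formation, rose (log2 fold change 0.99, SE 0.18, edgeR adjusted p = 0.0248). With single libraries left out, the edgeR adjusted p of *Pck1* ran from 0.00973 to 0.124, past the threshold in the absence of Control replicate 3 or KSPAPN replicate 1 or 2. *Slc12a1* and *Slc22a6* were past it in the absence of KSPAPN replicate 1 and of no other library. The calls of *Pck1*, *Slc12a1* and *Slc22a6* were lost with limma at both pseudocounts. That of *Slc12a1* was also lost after the GC content and length correction, with or without the replicate block. That of *Slc22a6* was also lost with total counts only. The other 5 acid-base genes did not pass the test. Among them were *Glud1*, for the enzyme that releases ammonia from glutamate, at -0.016, the glutamine transporter *Slc38a3* at 0.063, the bicarbonate cotransporter *Slc4a4* at -0.27 and the sodium-proton exchanger *Slc9a3* at -0.19. Over all 77 listed genes beyond the 10, of which 74 were tested, 2 were higher and 2 lower by the same threshold, beside 2.65% of all genes tested in either direction.

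**Figure D4:**
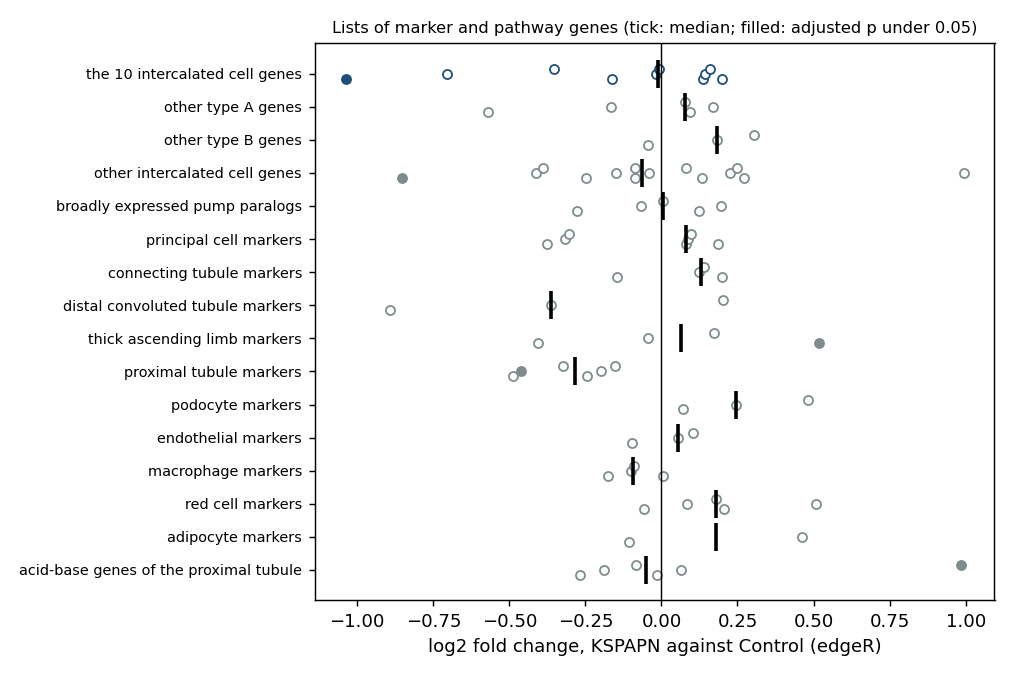
Log2 fold change (edgeR) of each tested gene by list, with the median as a tick and filled points for an adjusted p under 0.05. The 10 intercalated cell genes run from -1.04 to 0.20 around a median near 0, and filled points beyond them are *Atp4a*, *Slc22a6*, *Slc12a1* and *Pck1*.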

How the data were processed

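RNA of whole kidneys, enriched with oligo(dT) beads, was sequenced in 6 libraries. The authors deposited raw read counts per gene, without normalization, and FPKM, scaled by length and library size, with the length and total used not stated. The submitters' processing notes name STAR 2.5, TopHat, HTSeq 0.6.1, DESeq2 and edgeR without their roles. For the build and annotation used in counting: not given in the sources used here. Of 54532 rows, 54495 matched GENCODE M21 by identifier. Libraries were grouped by title.

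Counts were compared with edgeR 4.0.16 in R 4.3.3 (TMM normalization, minimum count 10 and minimum total 15, quasi-likelihood test, two-sided, Benjamini-Hochberg adjustment over all genes tested). Intervals of fold changes are 95% intervals from this fit. Normalised counts are CPM of the TMM-scaled total. The 10 genes and all lists were chosen with earlier results of these data known. The text names the 10 genes, listed genes past the threshold and up to 4 further genes per list by FPKM, and *Adipoq*. *Slc26a7*, *Tmem213*, *Fxyd4* and other listed genes beyond these were chosen after their values were seen. Some listed genes are counted but their own values are not reported here. Alternatives were DESeq2 1.42.0, RLE size factors, total counts only, no filter, limma 3.58.1 on log2 FPKM with pseudocounts of 1 and 0.1, replicate number as a block, a correction for GC content and length (splines with 5 degrees of freedom, genes with a mean log2 CPM above 3), and omission of each library. Tested on simulated data for this comparison (16017 genes, 200 of them altered), edgeR found 77% of the 2-fold and 99% of the 4-fold changes, with 3.30% false calls. The simulated counts followed the spread that edgeR itself had fitted and held no changes under 2-fold. These rates therefore do not cover smaller changes or a pool that deviates from its group. Tables and plots were made with Python 3.11.15, pandas 2.3.3 and matplotlib 3.10.9.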

Additional observations from a re-analysis of the deposited data

How the results depend on the processing

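Of the 10 intercalated cell genes, 1 passed an adjusted p of 0.05 in edgeR, *Rhbg*. The count was 3 with DESeq2 and 3 without a filter on low counts (*Slc4a1*, *Rhcg* and *Rhbg*, all lower), 2 with a replicate block (*Rhcg* and *Rhbg*), 0 after the correction for GC content and length, and 0 to 1 with single libraries left out. It was 1 in the other fits, and the cause of these differences was not tested. Those fits also differ in how many of all genes they call lower, with 5.31% in DESeq2, 3.53% without a filter, 4.40% with the block and 1.87% after the correction. Of the 77 other listed genes, 4 passed, and 8 did with DESeq2, 12 without a filter, 9 with a replicate block, 2 with total counts only, 2 after the GC and length correction, 0 with limma on log2 FPKM at either pseudocount, and 0 to 3 with single libraries left out. Replicate numbers correlated by r = 0.052, 0.14 and 0.17 between same-numbered libraries, each library best with its own number, and the labels state no pairing. The log2 fold changes of *Rhbg*, *Rhcg* and *Slc4a1* stayed below 0 in all 15 alternatives, at -1.199 to -0.80, -0.38 to -0.20 and -0.99 to -0.49, with adjusted p from 2.65e-04 to 0.123, 0.0279 to 0.290 and 4.74e-06 to 0.303. The sign turned for *Foxi1*, at 0.058 with total counts, 0.0998 with the GC and length correction, 0.099 with that correction and a replicate block, and -0.16 to 0.15 with single libraries left out. It turned for *Slc4a9* too, at 0.059, 0.048, 0.041 and -0.077 to 0.068 in the same order. The median of all genes tested was 0.081 with total counts only, 0.043 with the GC and length correction and 0.041 with that correction and the block, close to the values of *Slc4a9* in the last 2 fits. Type B to type A differences stayed above 0 with single libraries left out, at 0.68 to 1.29 for *Slc26a4* and 0.58 to 1.004 for *Slc4a9*. The highest mean FPKM of the 10 genes was 12.7 to 14.2 times the lowest. The lowest was *Rhbg*, whose level is uncertain because of its overlap with *Gm38392*. *Adipoq* kept a log2 fold change of at least 9.56.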
